A study of Homo sapiens with 6 samples.

Results

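The ISG15 conjugation system was followed here through 6 genes: ISG15 itself, UBA7, UBE2L6, HERC5, HERC6 and USP18. The genes were chosen by symbol for their roles in the pathway, with earlier results of these data known. Each was found once among the 58174 genes of every file. All 6 passed the expression filter, by which 12428 genes with 0.5 RPKM or more in 3 or more samples were kept. RPKM is a read count scaled by gene length and by the total of mapped reads. Levels can thus be set side by side between genes as far as the gene lengths used hold.

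ISG15 is a small ubiquitin-like protein that cells make in response to interferon. Its attachment to other proteins, called ISGylation, runs through a cascade of its own, with UBA7 as the activating enzyme (E1), UBE2L6 as the conjugating enzyme (E2) and HERC5 as the main ligase in human cells. HERC6 is a relative of HERC5 that carries out this step in mice, and USP18 is the protease that takes ISG15 off again. USP18 also binds the interferon receptor chain IFNAR2 and dampens signalling through it. The cascade is laid out like that of SUMO, a different ubiquitin-like protein, whose conjugating enzyme is UBC9.

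Poly(A) RNA was sequenced from T24, an established human bladder cancer cell line, in 3 shRNA-UBC9 samples, which stably carried a lentiviral shRNA against UBC9, and 3 shRNA-NC samples, which stably carried a scrambled control shRNA. Both groups had thus gone through lentiviral infection and selection. A single shRNA sequence against UBC9 was used, so that an effect of this sequence and an effect of lowered UBC9 cannot be told apart. The sources do not say whether the 3 samples of a group came from separate cultures, so the p-values measure only the spread between these samples, which may be technical. The library totals, recovered from the steps between RPKM values, lay between 28219032 and 36058872 reads. The libraries shRNA-NC replicate 1 and shRNA-UBC9 replicate 3 stood apart from the other 4 across the groups: 262 genes, among them PTPRC and LYZ, were at 0 in just these libraries, where the other pairings of a control and a knockdown library gave 21 to 66 such genes. In depth, shRNA-NC replicate 1 (29847726 reads) was the lowest of its group, against 34635214 and 33838697 reads in replicates 2 and 3. So was shRNA-UBC9 replicate 3 (28219032 reads), against 36058872 and 35235789 reads in replicates 1 and 2. Genes above 0 numbered 18059 and 18254 in these libraries and 19002 to 19725 in the other 4. How far depth accounts for the genes at 0 was not tested. The labels name no batch behind the split, and the members' values with and without it are given after the main comparison. The simple keratins KRT7, KRT8, KRT18 and KRT19 of an epithelial cell were expressed, KRT5 and KRT20 were at 0, and the uroplakins UPK1A, UPK1B, UPK2 and UPK3A, the defining proteins of mature urothelium, were all near 0. Of the other listed epithelial markers, GATA3 (8.384, 5.228 and 9.357 RPKM) and PPARG (14.54, 17.46 and 20.62 RPKM) were expressed in shRNA-NC. Both were lower in every shRNA-UBC9 sample, and TP63 was near 0 in both groups.

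All members except HERC5 were more abundant in every shRNA-UBC9 sample than in every shRNA-NC sample. ISG15, UBA7, UBE2L6, HERC6 and USP18 were up-regulated DEGs, here a |log2 fold change| over 1 with an adjusted p-value below 0.05 in limma, and HERC5 was not. That made 5 of 6 members, with none called lower, where 5.20% of the 12428 tested genes were called higher and 2.70% lower. The median log2 fold change was 1.77 over the 6 members and 0.005 over all tested genes. Groups that did not overlap, with shRNA-UBC9 higher, were found for 5 of 6 members and for 25.7% of tested genes. The two-sided exact permutation test gave p = 0.1 for each of those 5 genes, the smallest value that groups of 3 allow, and p = 0.2 for HERC5. The split between libraries was taken into account by a fit with it as a term and by a fit of the other 4 libraries alone. Both called the same count of 5 members, with ISG15 at 2.34 and 2.43, UBA7 at 1.20 and 1.22, UBE2L6 at 1.5 and 1.58, HERC5 at 0.46 and 0.58 (not called), HERC6 at 2.05 and 2.07 and USP18 at 2.67 and 2.68 on the log2 fold change scale.

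**Figure D1:**
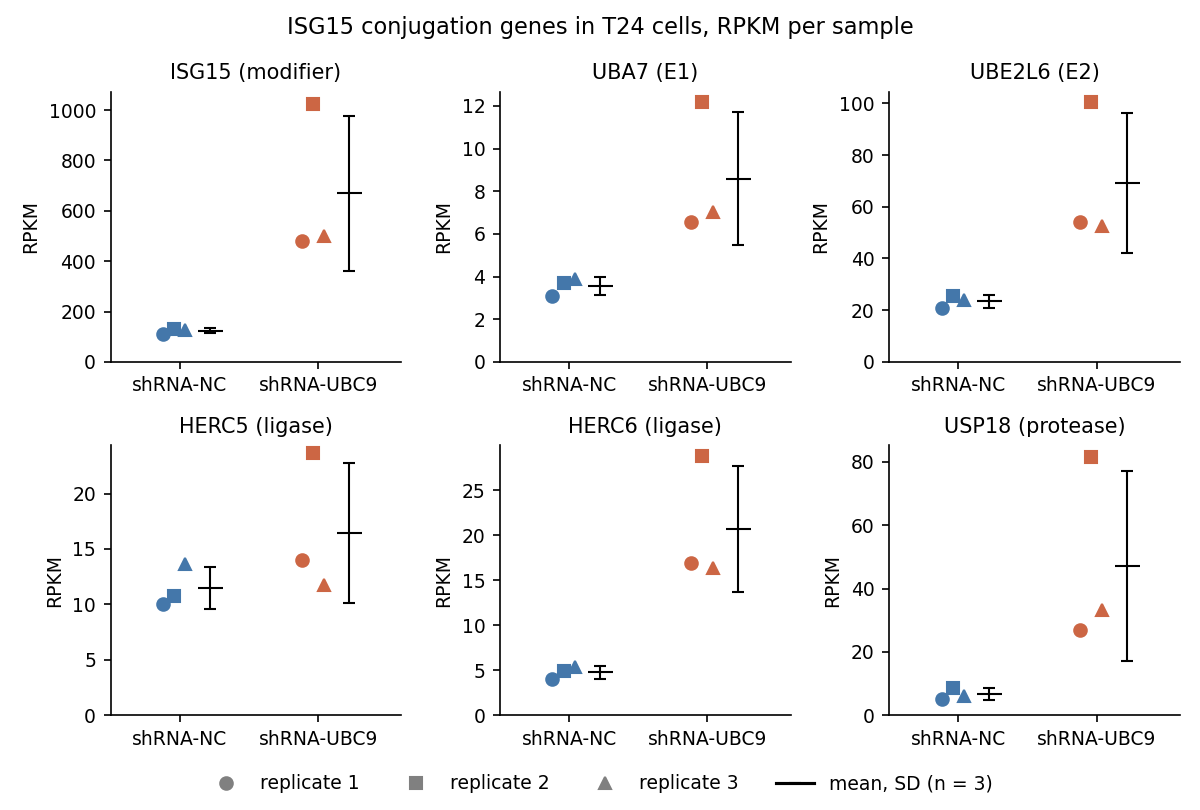
RPKM of each member in every sample (vertical axes from 0, different in each panel), with shRNA-NC in blue and shRNA-UBC9 in orange, symbols for replicates, and bars for mean and SD (n = 3). The groups are apart in every panel except that of HERC5, where shRNA-UBC9 replicate 3 (11.73 RPKM) lies under shRNA-NC replicate 3 (13.63 RPKM), and shRNA-UBC9 replicate 2 is the highest sample in all 6 panels.

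The modifier was the most abundant member. ISG15 (chr1:1013497-1014540, plus strand, RefSeq, GRCh38.p14) had 112.2, 131.7 and 128.1 RPKM in shRNA-NC replicates 1 to 3, and 480, 1026 and 501.5 RPKM in shRNA-UBC9. The shRNA-NC samples lay close together, whereas shRNA-UBC9 replicate 2 had about double the level of its fellow replicates, and even the lowest shRNA-UBC9 sample was far above the highest control. The log2 fold change was 2.34 (SE 0.26, 95% interval 1.74 to 2.94, adjusted p = 0.00048), which is 5.07-fold (3.34 to 7.68). In the order of mean level among the 12428 tested genes, ISG15 moved from place 238 to place 30. Behind these values stood 3155 to 4298 reads in the control samples and 13332 to 34040 reads in the knockdown samples.

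The E1 enzyme was the least abundant member in both groups. UBA7 (chr3:49805209-49813953, minus strand), which charges ISG15 with ATP and passes it to the E2, had 3.103, 3.716 and 3.875 RPKM in shRNA-NC and 6.559, 12.2 and 7.025 RPKM in shRNA-UBC9. The groups were clearly apart, and replicate 2 was again the highest. UBA7 rose 2.29-fold (1.61 to 3.25), with a log2 fold change of 1.20 (SE 0.22, adjusted p = 0.0042). Its call as a DEG rested on shRNA-UBC9 replicate 2: without that sample the log2 fold change was 0.92 (adjusted p = 0.0029), still past the test but short of the fold required. A microRNA gene inside UBA7, MIR5193, was at 0 in every sample.

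UBE2L6 (chr11:57551662-57567935, minus strand), the E2 that takes ISG15 from UBA7, was second in abundance in the control cells. Its levels were 20.74, 25.67 and 23.77 RPKM in shRNA-NC and 54.2, 100.4 and 52.71 RPKM in shRNA-UBC9. Replicates 1 and 3 of shRNA-UBC9 were nearly equal and stood above all controls. UBE2L6 rose 2.82-fold (1.95 to 4.08), a log2 fold change of 1.5 (SE 0.23, adjusted p = 0.002).

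The ligases behaved differently from each other. HERC5 (chr4:88457119-88506163, plus strand), the ligase that works on newly made proteins at the ribosome, had 10.02, 10.79 and 13.63 RPKM in shRNA-NC and 14.03, 23.66 and 11.73 RPKM in shRNA-UBC9. The groups overlapped, since shRNA-UBC9 replicate 3 fell between the controls. The log2 fold change of HERC5 was 0.46 (SE 0.24, 95% interval -0.09 to 1.02, adjusted p = 0.17), so that the interval runs from no change to about a doubling. The value hung on single samples: it was 0.17 without shRNA-UBC9 replicate 2 and 0.67 (adjusted p = 0.049) without shRNA-UBC9 replicate 3.

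HERC6 (chr4:88378852-88443097, plus strand), its neighbour on the chromosome, had 4.002, 4.949 and 5.382 RPKM in shRNA-NC and 16.88, 28.76 and 16.37 RPKM in shRNA-UBC9. No shRNA-UBC9 sample came near the controls. HERC6 rose 4.14-fold (2.94 to 5.84), with a log2 fold change of 2.05 (SE 0.22, adjusted p = 0.00037), the smallest adjusted p-value of the 6 members. The ratio of HERC6 to HERC5 within each sample was 0.399, 0.459 and 0.395 in shRNA-NC and 1.2, 1.22 and 1.4 in shRNA-UBC9. HERC5 was therefore the more abundant of the pair in every control sample, and HERC6 in every knockdown sample.

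USP18 (chr22:18150170-18177397, plus strand), the deconjugating protease, showed the highest fold change and the widest spread of the members. It had 5.193, 8.72 and 5.983 RPKM in shRNA-NC and 26.79, 81.41 and 33.09 RPKM in shRNA-UBC9. Replicate 2 was the highest sample of both groups, and in shRNA-UBC9 it was 3.04 times the lowest. USP18 rose 6.35-fold (3.47 to 11.6), a log2 fold change of 2.67 (SE 0.38, adjusted p = 0.0014). The near-identical copy USP41 held at most 3 reads in any sample, against 330 to 643 reads for USP18 in shRNA-NC and 1988 to 6107 in shRNA-UBC9. How the authors' software placed reads that match both genes is not given in the sources used here.

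Promoter sequence was at hand in RefSeq windows of 250 bases before to 50 bases after the start for ISG15, UBE2L6, HERC5 and HERC6, while UBA7 and USP18 had no entry. The windows were searched on both strands for GAAA followed after any 2 bases by GAAA, the core of the interferon-stimulated response element (ISRE), and for TTCNNNGAA, the gamma-activated site (GAS), both known from interferon-induced genes. The ISRE core was found in 3.57% of 35116 promoter windows, and the GAS in 7.66%. ISG15 held 2 overlapping ISRE cores, beginning at -113 and -107 from the start. HERC5 held 3 on the other strand, at -125, -119 and -74, of which the first pair overlap. UBE2L6 (both of its windows) and HERC6 held none, and no GAS was found in any of these windows. The stretches around the matches are shown because ISG15 and HERC5, the genes that hold them, differed in their response. They are read on the plus strand of GRCh38.p14, the strand of both genes, with bases inside an ISRE core in capitals, and they overlap no GENCODE 44 exon.
ISG15, chr1:1013364-1013419: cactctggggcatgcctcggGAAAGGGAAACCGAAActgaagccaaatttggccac
HERC5, chr4:88456974-88457074: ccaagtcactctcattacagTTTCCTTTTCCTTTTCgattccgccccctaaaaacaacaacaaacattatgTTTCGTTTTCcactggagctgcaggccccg
A match is a description of the letters, not of binding.

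Because the members did not move equally, the make-up of the system was compared by ratios within each sample, which do not depend on how samples were scaled to each other. ISG15 gained on its E1, its E2 and HERC5. The ratio of ISG15 to UBA7 was 36.2, 35.4 and 33 in shRNA-NC and 73.2, 84.1 and 71.4 in shRNA-UBC9. The ratio of ISG15 to UBE2L6 was 5.41, 5.13 and 5.39 against 8.85, 10.2 and 9.51, and that of ISG15 to HERC5 was 11.2, 12.2 and 9.4 against 34.2, 43.3 and 42.8. In all of these the groups were apart, and shRNA-UBC9 replicate 2, which stood out in level, was close to its fellow replicates in ratio.

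HERC6 and USP18 kept a closer balance with ISG15. The ratio of ISG15 to HERC6 was 28, 26.6 and 23.8 in shRNA-NC and 28.4, 35.7 and 30.6 in shRNA-UBC9, a small shift without overlap (difference in log2 ratio 0.29, or 0.46 with a pseudocount of 1). The ratio of ISG15 to its protease USP18 was 21.6, 15.1 and 21.4 against 17.9, 12.6 and 15.2, with overlapping groups (difference in log2 ratio -0.33). This difference was -0.20 without shRNA-UBC9 replicate 2 and -0.18 with a pseudocount of 1. By exact permutation tests, two-sided and 3 samples against 3, over 13 ratios computed, those without overlap gave p = 0.1 (adjusted p = 0.13), the smallest value possible, and ISG15 to USP18 gave p = 0.3 (adjusted p = 0.3545). None could thus reach 0.05, and the overlap, not the p-value, separates these ratios.

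**Figure D2:**
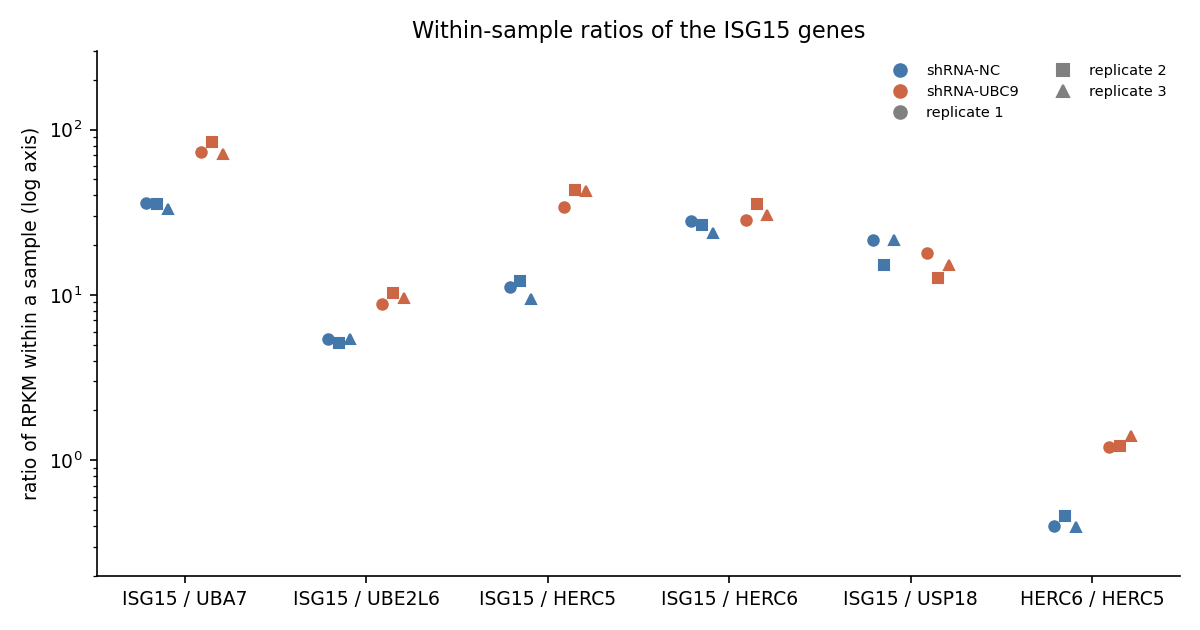
Ratios of RPKM between members within each sample (log axis), with shRNA-NC in blue, shRNA-UBC9 in orange and a symbol for each replicate. The groups are apart for every ratio shown except ISG15 to USP18, and HERC6 to HERC5 passes from under 1 in all shRNA-NC samples to above 1 in all shRNA-UBC9 samples.

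Of the summed RPKM of the 6 genes, ISG15 made up 72.3, 71 and 70.9% in shRNA-NC and 80.2, 80.6 and 80.6% in shRNA-UBC9. HERC5 made up 6.46, 5.81 and 7.54% and then 2.35, 1.86 and 1.88%. The share of HERC5 was thus lower in every knockdown sample although its own level was not. In the control samples the order of mean levels was ISG15, UBE2L6, HERC5, USP18, HERC6 and UBA7, with USP18 and HERC6 overlapping. In the knockdown samples it was ISG15, UBE2L6, USP18, HERC6, HERC5 and UBA7, with overlapping ranges for each neighbouring pair from UBE2L6 to UBA7.

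The sample shRNA-UBC9 replicate 2 was the highest of its group for 6 of 6 members, where 30.8% of the tested genes were highest in it. Its level divided by the mean of shRNA-UBC9 replicates 1 and 3 ranged from 1.73 for HERC6 to 2.72 for USP18, while the median of this ratio over all tested genes was 1.009. The rise of the members is therefore larger with this sample than without it. Without it, the log2 fold changes were 1.99 for ISG15, 1.19 for UBE2L6, 1.79 for HERC6 and 2.18 for USP18, all still DEGs, and 4 members were called in place of 5. What set this sample apart was not tested.

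The nearest relatives of the members, which serve other modifiers, moved little. UBE2L3, the E2 closest to UBE2L6, had a mean of 39.25 RPKM in shRNA-NC and 39.41 RPKM in shRNA-UBC9 (log2 fold change 0.01, adjusted p = 0.97). The ratio of UBE2L6 to UBE2L3 was 0.564, 0.619 and 0.602 in shRNA-NC and 1.42, 2.37 and 1.4 in shRNA-UBC9, so that the ISG15 enzyme passed from the lower to the higher level of the pair in every sample. UBA1, the main ubiquitin E1, did not pass the test (0.27, adjusted p = 0.16). Of the ligase relatives, HERC4 stood at 0.00, HERC1 at -0.02 and HERC2 at -0.11, while HERC3, the next HERC gene along chromosome 4 after HERC6 and HERC5, rose slightly (0.42, adjusted p = 0.035). HERC5 (0.46, adjusted p = 0.17) was not set apart from its relatives. Its ratios to HERC3 and to HERC4 overlapped between the groups, with differences in log2 ratio of 0.04 and 0.46.

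**Figure D3:**
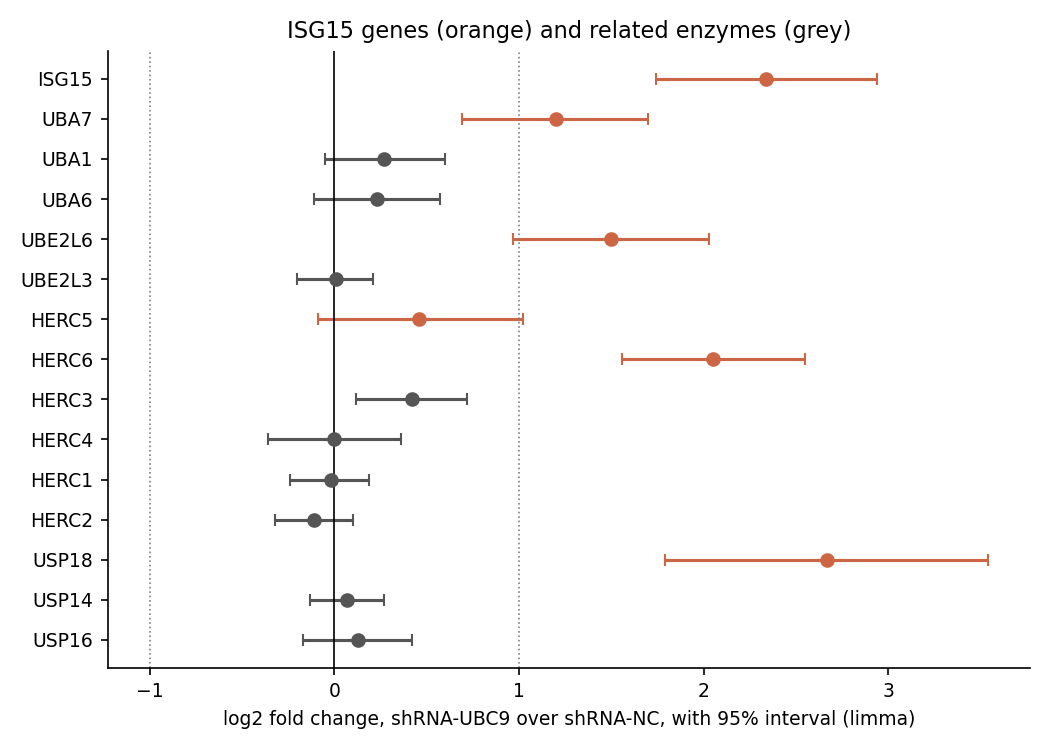
Log2 fold change of shRNA-UBC9 over shRNA-NC with 95% interval (limma, n = 3 per group) for the members in orange and related enzymes in grey, with dotted lines at -1 and 1. The intervals of ISG15, UBA7, UBE2L6, HERC6 and USP18 lie wholly above 0, and those of HERC5 (-0.09 to 1.02) and of all relatives shown except HERC3 include 0.

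Each enzyme was then placed in its family by log2 fold change. UBA7 came first of 10 tested E1 and E1-like enzymes and was the only DEG among them, followed by ATG7, the E1 of autophagy, at 0.63. UBE2L6 came first of 35 tested E2 enzymes and was the only one of them called higher, and the median of the E2 enzymes other than UBE2L6 was 0.12. HERC6 came first of 26 tested HECT ligases and HERC5 second, level with AREL1 at 0.46, and HERC6 was the only DEG. USP18 came first of 45 tested ubiquitin-specific proteases, followed by USP53 at 1.40 (2.405 to 6.651 RPKM, adjusted p = 0.00089), and no other member of the family was a DEG. Over all tested genes, 5.20% were called higher and 2.70% lower. Families of these sizes hold few DEGs at that share, so the counts alone do not set the named enzymes apart. Without shRNA-UBC9 replicate 2, the DEG among the E1 enzymes was UBA3, the NEDD8 E1 subunit (-0.97 with all samples), and no longer UBA7.

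Other ubiquitin-like systems were set beside that of ISG15 as counts. No DEG was found among 10 tested genes of the NEDD8 system (median log2 fold change 0.11), 8 of the UFM1 system (median -0.02), 3 of the FAT10 system (median 0.23) or 2 of the URM1 system (median -0.01). With 5.20% of all tested genes called higher and 2.70% lower, lists of this size hold few DEGs or none at the background share, so that these counts set no contrast with the ISG15 system. Of 14 tested genes of the ATG8 and ATG12 system of autophagy (median 0.33), GABARAPL1 rose (1.06), a call that was lost with a pseudocount of 1. Without shRNA-UBC9 replicate 2, UBA3 became a DEG of the NEDD8 system.

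**Figure D4:**
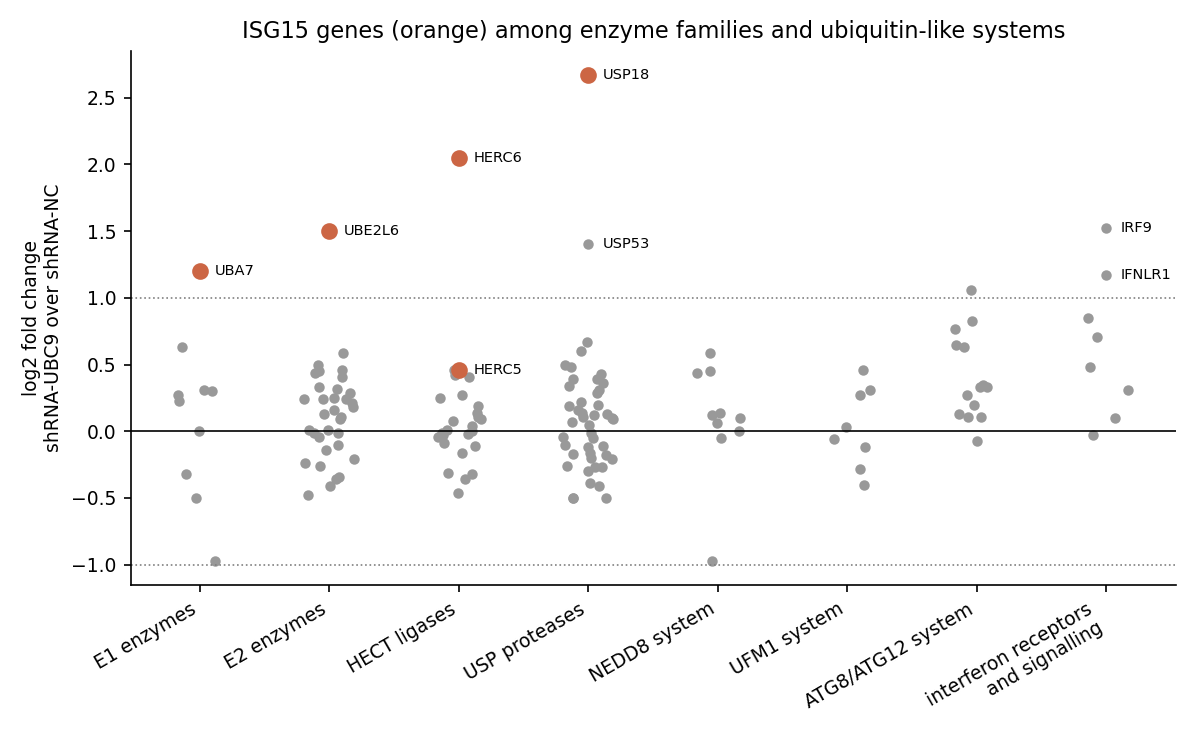
Log2 fold change of shRNA-UBC9 over shRNA-NC for the tested genes reported here (points) of enzyme families, ubiquitin-like systems and interferon receptors with their signalling genes, with members in orange and dotted lines at -1 and 1. UBA7, UBE2L6, HERC6 and USP18 are the highest points of their families.

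Genes that act with ISG15 but are not dedicated to it were read as a list of their own. Of 10 such ligases, proteases and receptor chains, 8 were tested and none was a DEG, a count near the background of 5.20% called higher and 2.70% lower, with a median log2 fold change of -0.04. TRIM25, a ligase for both ubiquitin and ISG15, rose from a mean of 26.1 to 35.82 RPKM (0.44, adjusted p = 0.027), where 18.8% of all tested genes passed the adjusted p-value alone in this direction. SKP2, the substrate receptor of an SCF ubiquitin ligase that acts on USP18, fell from 21.97 to 15.53 RPKM (-0.51, adjusted p = 0.012), where 18.0% passed in that direction. The ISGylating ligase ARIH1 (0.03) and the proteases USP14 (0.07), USP16 (0.13), USP21 (-0.12), USP13 (-0.26) and USP5 (-0.27), which can cleave ISG15 or bind it, did not pass the test. ITGAL and ITGB2, the chains of the receptor for secreted ISG15, were under the expression filter. Without shRNA-UBC9 replicate 2, 1 of these genes in place of 2 passed the adjusted p-value.

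The interferon receptors, their kinases and their transcription factors stand upstream of all 6 members. All 9 listed genes were tested, of which 3 were DEGs in the upward direction and none was called lower, where 5.20% of all tested genes were called higher and 2.70% lower. Their median log2 fold change was 0.71. IRF9 rose from a mean of 6.96 to 20.11 RPKM (1.52, adjusted p = 0.00011), while STAT2 reached 0.85 (adjusted p = 0.018), short of a DEG. IFNLR1, the receptor chain specific to type III interferon, rose (1.17, adjusted p = 0.0019). IFNAR2, the chain that USP18 binds, went from 3.216 to 5.316 RPKM (0.71, adjusted p = 0.0064), and IFNAR1 stood at 0.10. The mean level of USP18 was 6.632 RPKM in shRNA-NC and 47.1 RPKM in shRNA-UBC9, above that of IFNAR2 in both groups. The length recovered for USP18 from the RPKM steps was 2129 bases, against 4095 bases of GENCODE 44 exons. Its level beside other genes depends on that length.

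Interferon transcripts themselves were few. IFNL1, a type III interferon, had 1, 2 and 2 reads in shRNA-NC and 21, 72 and 15 reads in shRNA-UBC9, and it passed the expression filter only through shRNA-UBC9, so that no test of it is given. IFNB1, a type I interferon, had 0 reads in all shRNA-NC samples and 15, 24 and 5 in shRNA-UBC9, under the expression filter. IFNG was at 0 in every sample. For IFNL1 and IFNB1, as for the 6 members, shRNA-UBC9 replicate 2 was the highest sample. IFNE, also under the expression filter, did not follow this order. It had 20, 9 and 15 reads in shRNA-NC and 43, 41 and 17 in shRNA-UBC9. Its groups overlapped in RPKM, and shRNA-UBC9 replicate 1 was its highest sample (0.8085 RPKM, against 0.7889 RPKM in replicate 2).

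HERC6, HERC5, HERC3 and PPM1K lie close together on chromosome 4. PPM1K, a mitochondrial phosphatase gene that ends before HERC6 begins, was the one DEG of 10 tested neighbours of the members (1.29, 1.305 to 3.383 RPKM, adjusted p = 0.0013, not a DEG with a pseudocount of 1). This count is near the background share, as 5.20% of all tested genes were called higher and 2.70% lower. Beside ISG15, HES4 (0.57, adjusted p = 0.08) was not called and AGRN (0.41, adjusted p = 0.023) passed the test below the fold required. By start position the order on chromosome 4 was PPM1K, HERC6, HERC5 and HERC3, so that HERC5, which was not called, lay between HERC genes with a log2 fold change of 2.05 and 0.42.

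The genes most like each member were found by the root mean square (RMS) difference of log2 values over the 6 samples, each gene centred on its own mean. As all samples of both groups enter, such likeness includes the group difference and is a description only. Nearest to ISG15 were SP110 (0.089), SLC15A3 (0.090) and IFI35 (0.102), where the median tested gene was at 1.231. Nearest to UBA7 were TRIM21 (0.103) and TRIM5 (0.112), both antiviral ligases, and nearest to UBE2L6 were IFI16 (0.050), a sensor of DNA, and PARP14 (0.096). HERC6 was nearest to IFI44 (0.056) and PHF11 (0.105).

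USP18 had no gene as close, with TRIM22 at 0.192 and IFI35 at 0.201. HERC5 was nearest to NUB1 (0.1), which binds the ubiquitin-like proteins NEDD8 and FAT10, and APOL6 (0.124). NUB1 shared the pattern of HERC5 in detail, with 13.8, 15.04 and 16.28 RPKM in shRNA-NC and 18.93, 27.94 and 16.2 RPKM in shRNA-UBC9, and was not called either (0.45, adjusted p = 0.092). Among the members, UBA7 and UBE2L6 were the closest pair (0.166), followed by ISG15 and HERC6 (0.188) and ISG15 and USP18 (0.275). HERC5 and USP18 were the farthest apart (1.159).

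Markers of cell types that could make interferon or respond to it were read in the same samples. Of 9 leukocyte markers 2 were tested and none was called, with summed levels of 0.7289 to 1.672 RPKM in shRNA-NC and 0.786 to 2.268 RPKM in shRNA-UBC9, and MS4A1 at 0. PTPRC, which marks all leukocytes, had means of 0.06046 and 0.05488 RPKM. PTPRC and LYZ were at 0 in shRNA-NC replicate 1 and shRNA-UBC9 replicate 3 and above 0 in the other 4 libraries, up to 0.1017 RPKM for PTPRC and 0.7861 RPKM for LYZ. CD14, which monocytes express, had means of 0.52 and 0.7165 RPKM without overlap but did not pass the test (0.47, adjusted p = 0.25). Groups apart in this direction were found for 25.7% of tested genes. Of 13 epithelial markers 6 were tested and all 6 passed the adjusted p-value as lower in shRNA-UBC9, 2 of them as DEGs (KRT7 and PPARG). Of all tested genes, 18.0% passed the adjusted p-value as lower and 2.70% were DEGs in that direction. The summed levels of the epithelial markers were 959.9 to 1130 RPKM in shRNA-NC and 434.5 to 570.9 RPKM in shRNA-UBC9. Of 3 endothelial markers only CDH5 passed the filter, with means of 2.868 RPKM in shRNA-NC and 0.6187 RPKM in shRNA-UBC9. PECAM1 and VWF were near 0 in both groups. The 3 markers together summed to 0.3155 RPKM in shRNA-UBC9 replicate 1. Passing the filter thus leaned on shRNA-NC, and no test of CDH5 is given. Of 5 fibroblast markers 2 passed the filter: PDGFRB, lower in shRNA-UBC9 (0.7642 to 0.2022 RPKM), and COL1A1, higher there. Both lay so near 0.5 RPKM that passing the filter leaned on the group with the higher level, so no test of them is given. The summed level of the fibroblast markers was 0.9776 to 1.317 RPKM in shRNA-NC and 0.8817 to 1.268 RPKM in shRNA-UBC9. The lower epithelial markers and the higher members share the difference between the groups. Within shRNA-UBC9 replicates 1 to 3 the epithelial markers summed to 434.5, 521.9 and 570.9 RPKM, and the members to 598.4, 1272 and 622.5 RPKM. The part of the marker changes in the result was not tested.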

How the data were processed

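Per the labels and the methods of the paper, poly(A) RNA was prepared with the Illumina TruSeq kit. After trimming, the authors mapped the reads in CLC Biomedical Genomics Workbench 4 at default settings, with GRCh38 as the genome, and deposited RPKM values, 1 file per sample. The annotation release, the strand setting and the handling of reads with several matches are not given in the sources used here.

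Groups and replicate numbers came from the labels. The 6 members and all gene lists were chosen with earlier results of these data known. The genes named are the members, their relatives, the genes of the lists that were DEGs or stand in a stated role, and up to 5 genes nearest to each member. Values were taken to log2(RPKM + 0.1), the 12428 genes that had 0.5 RPKM or more in 3 or more samples were kept, and shRNA-UBC9 was compared with shRNA-NC in limma 3.58.1 (R 4.3.3), with an intensity trend in eBayes and no block. All adjusted p-values of genes are Benjamini-Hochberg values over the 12428 genes. Fold changes are on the log2(RPKM + 0.1) scale, which understates changes of low genes. RPKM corrects for depth and length but not for differences in RNA composition.

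Library totals were recovered as the whole numbers of reads on which 346 genes agreed, using GENCODE 44 exon lengths. With a tolerance of 0.003 reads, 12424 of the 12428 tested genes then gave whole reads in every sample, so read numbers given are the smallest that fit. No files held identical values. Some genes are not reported here. Positions and promoter windows are those of RefSeq (GRCh38.p14). The scripts were tested on simulated data. Alternatives were other pseudocounts, filters, scalings and thresholds, no intensity trend, a replicate block and leaving out each sample. The voom fit of limma on the recovered reads was added after the data were seen, as were leaving out shRNA-UBC9 replicate 2 for the allied lists and the fits for the split between libraries.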

Additional observations from a re-analysis of the deposited data

How the results depend on the processing

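Under 11 alternatives other than leaving out single samples, each member stayed on its side of the DEG threshold with its direction, with log2 fold changes of 2.28 to 2.43 for ISG15, 1.03 to 1.22 for UBA7, 1.45 to 1.58 for UBE2L6, 0.42 to 0.58 for HERC5 (adjusted p from 0.11 to 0.29), 1.87 to 2.07 for HERC6 and 2.51 to 2.68 for USP18. Against 981 DEGs over all tested genes, 552 were called with a pseudocount of 1 (391 higher, 161 lower), of which 552 were among the 981, and 552 with an RPKM of at least 1 in every sample (342 higher, 210 lower), of which 550 were, with fewer genes tested. The voom fit on recovered reads, added after the data were seen, called 1057 DEGs (688 higher, 369 lower).

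Leaving out each sample in turn gave 926 to 1065 DEGs, 4 to 5 members called, and log2 fold changes of 1.99 to 2.53 for ISG15, 0.92 to 1.36 for UBA7, 1.19 to 1.66 for UBE2L6, 0.17 to 0.67 for HERC5, 1.79 to 2.19 for HERC6 and 2.18 to 2.98 for USP18. UBA7 lost its call without shRNA-UBC9 replicate 2 (0.92). The log2 ratio of HERC5 to HERC3 changed sign with the sample left out (-0.24 to 0.26).

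Samples that share a replicate number did not deviate together (r = -0.367, 0.073 and -0.170 across genes), so the numbers did not pair the samples. The highest value of the 9 pairings was 0.526, between shRNA-NC replicate 1 and shRNA-UBC9 replicate 3, the libraries that stood apart. With their split as a term there were 978 DEGs, and without them 1011, both chosen after the data were seen. With the replicate number as a block there were 974 DEGs (642 higher, 332 lower) and the same count of 5 members called, while genes passing the adjusted p-value alone went from 17 to 9 among the ubiquitin-specific proteases. Low counts limit what can be read from IFNL1, IFNB1, IFNE and USP41, and 3 samples a group limit all tests.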
